A study of Mus musculus with 16 samples.

Results

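The comparison described here is that of Dox+RA iHCs with control EBs on culture day 12, taken over all genes with a symbol of their own on the array. It uses the 3 arrays titled as Dox+RA iHCs of day 12 and the 2 titled as control EBs of day 12, which are 5 of the 16 arrays in the series. All cells came from iGPA-Myo7a:mVenus, a line of mouse embryonic stem cells. Its transgenes let doxycycline (Dox) switch on Gfi1, Pou4f3 and Atoh1, all transcription factors, and it carries mVenus, a fluorescent protein, as a reporter of Myo7a. The line was grown as floating embryoid bodies (EBs), balls of cells in which stem cells differentiate into a mix of early tissues. For the iHCs, Dox and retinoic acid (RA) were given from day 4 for 8 days, and the cells positive for the reporter were sorted by flow cytometry on day 12. Control EBs carried the same transgenes, received neither Dox nor RA, and were taken whole and unsorted. Treatment and sorting therefore cannot be told apart in any difference given below. For the same reason a lower signal in iHCs can be fewer cells of a type or less RNA per cell, which bulk RNA cannot tell apart. Dox iHCs of day 12 (no RA, 3 arrays) and the Dox+RA iHCs and control EBs of day 8 (3 and 2 arrays) were used where a difference itself was tested.

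Hair cells are the receptors of the inner ear. Bundles of actin-filled stereocilia, joined by tip links, open transduction channels when they are bent, and ribbon synapses pass the signal to the auditory and vestibular nerves. In the embryo the basic helix-loop-helix (bHLH) factor Atoh1 starts the hair cell programme and drives Pou4f3 and Gfi1, which are needed for hair cells to mature and survive, while Notch ligands on young hair cells hold their neighbours in the supporting cell state. Atoh1 also acts in cerebellar granule cells, dorsal spinal interneurons, Merkel cells of the skin and secretory cells of the gut, so genes of those cells were examined beside those of hair cells.

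Signals are the authors' log2 RMA values, so a difference of 1 is a 2-fold difference. Replicate arrays correlated at 0.988 to 0.995 among the Dox+RA iHCs and at 0.994 between the control EBs, and arrays of the different groups at 0.872 to 0.883. Replicate 3 of the Dox+RA iHCs stood apart: 101 genes lay more than 1 log2 unit from the median of the 3 arrays there, against 6 genes in replicate 1 and 0 in replicate 2. Fosb (7.69, 7.58 and 10.21), Fos (7.46, 7.46 and 9.23) and Atf3 (6.40, 6.35 and 8.44), immediate early genes, were among the genes higher in that array, and the hair bundle gene Grxcr2 (8.24, 8.15 and 5.95) and the endothelial cadherin gene Cdh5 (7.80, 7.52 and 5.22) among those lower. Results that this array moved by over 1.5 times or whose call it changed are given with and without it. The labels call the starting cells embryonic stem cells. Of 20 hair cell markers, 19 were called higher in iHCs and 0 lower, and their mean log2 signal ran from 7.96 to 8.26 in the iHC arrays against 4.72 and 4.76 in the control EBs. These markers include Atoh1, Pou4f3 and Gfi1, which Dox switches on in this line, and Myo7a, whose reporter was used for sorting. The rise of those members follows from how the cells were made and chosen. Chrna9, at 0.66 ± 0.40 (adjusted p = 0.2), was the marker not called in this fit. Of 8 stem cell markers, 4 were called lower and 0 higher.

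Of 22180 genes, 9927 (44.8%) were called between the groups (limma, Benjamini-Hochberg adjusted p under 0.05). Those higher in iHCs numbered 4964 (22.4%) and those lower 4963 (22.4%). Among larger differences, 1607 genes (7.25%) were at least 2-fold higher and 2176 (9.81%) at least 2-fold lower, 545 and 761 were at least 4-fold higher and lower, and 73 and 58 at least 16-fold. The median log2 difference over all genes was 0.07, and arrays of the groups did not overlap in 14333 genes (64.6%), with iHCs higher in 36.1% and lower in 28.5%. Without replicate 3 of the Dox+RA iHCs, 9282 genes were called, 4544 higher and 4738 lower.

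The factors of the inducible line were all far above their level in control EBs. Atoh1 read 11.22, 11.22 and 11.20 in the Dox+RA iHC arrays and 4.97 and 5.09 in the control EB arrays, a log2 difference of 6.18 ± 0.15 (limma adjusted p = 7.45e-13). Pou4f3 read 11.49, 11.43 and 11.37 against 5.30 and 4.66, a difference of 6.45 ± 0.19 (limma adjusted p = 4.66e-12), and Gfi1 read 11.26, 11.30 and 11.14 against 6.59 and 6.58, a difference of 4.65 ± 0.11 (limma adjusted p = 8.47e-13). No array of either group overlapped the other for any of these factors. Their probes may read transcripts of the transgene and of the cells' own genes alike. Myo7a, the unconventional myosin of stereocilia whose reporter was used to choose the cells, read 8.52, 8.44 and 8.08 against 5.32 and 5.68, a difference of 2.85 ± 0.28 (limma adjusted p = 6.19e-07).

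The largest rise of all was that of Ptprz1, a receptor-type tyrosine phosphatase of neural progenitors and glia, which read 10.72, 10.71 and 10.74 in iHCs and 3.44 and 3.44 in control EBs (7.29 ± 0.39; 156-fold). Ccer2, which encodes a secreted coiled-coil protein, read 11.31, 11.26 and 11.14 against 5.04 and 4.59 (6.42 ± 0.15). Nhlh1, a neuronal bHLH factor, read 10.66, 10.53 and 10.43 against 4.29 and 4.13 (6.33 ± 0.21). For each of these genes the iHC arrays lay within a narrow band far above both control arrays. Signalling and membrane genes followed: Plch2, a phospholipase C (5.93 ± 0.28), Kcnk9, a background potassium channel (5.92 ± 0.42), Rab3c, a vesicle GTPase (5.87 ± 0.34), Igsf21, a synaptic adhesion protein (5.17 ± 0.17), and Cacna2d2, a calcium channel auxiliary subunit (5.11 ± 0.18). Kcnk9 varied more than the others, at 10.89, 10.79 and 9.88 in iHCs against 4.71 and 4.49, with the lowest value in replicate 3. Neuronal genes in the same range were the long noncoding RNA Miat (5.48 ± 0.19), the LIM homeobox factor Lhx1 (5.39 ± 0.33), the axonal adhesion protein gene Cntn2 (5.35 ± 0.15) and the gamma-synuclein gene Sncg (5.08 ± 0.14). Myo15, the motor that carries cargo to stereocilia tips, completes the 15 with Atoh1 and Pou4f3 and read 9.64, 9.54 and 9.26 against 4.70 and 4.05 (5.10 ± 0.29).

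**Figure D1:**
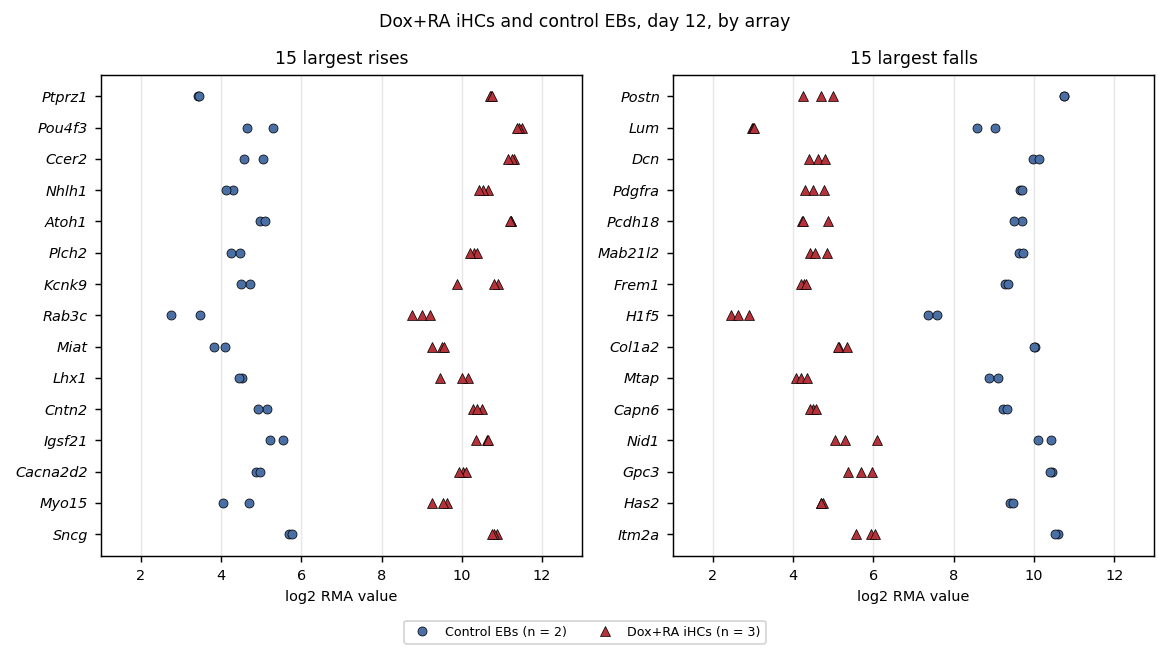
Log2 RMA values of the 15 genes with the largest rises (left) and the 15 with the largest falls (right) between Dox+RA iHCs and control EBs at day 12, each point an array (3 triangles for iHCs, 2 circles for control EBs). The genes were picked among called genes whose arrays do not overlap between the groups, which holds for 64.6% of all genes. Kcnk9 has the widest spread among the iHC arrays of the rises, from 9.88 to 10.89.

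Because bHLH factors such as Atoh1 bind E-boxes, the promoters of the genes that rose were read for the E-box letters CAGCTG, which is its own reverse complement, and CAGATG, on both strands. A promoter was taken from RefSeq (GRCm38.p6) as the 250 bases before and 50 after a gene's start, and 16918 of the 22180 genes had one. Over all of them, 15.8% held CAGCTG, 14.8% held CAGATG and 28.1% held either. Among genes called at least 4-fold higher, 96 of 430 (22.3%) held CAGCTG and 162 (37.7%) held either, and among those at least 4-fold lower 90 of 554 (16.2%) and 145 (26.2%) did. A match of letters is a description and not a binding site. The promoter of Ccer2 is shown for a gene among the largest rises and that of Cib3, a subunit of the transduction complex, for a gene that also differed with RA, with matches to either E-box in capitals. They are chr7:28755924-28756223, plus strand, and chr8:72212788-72213087, minus strand, both 5′ to 3′ along the gene.
Ccer2: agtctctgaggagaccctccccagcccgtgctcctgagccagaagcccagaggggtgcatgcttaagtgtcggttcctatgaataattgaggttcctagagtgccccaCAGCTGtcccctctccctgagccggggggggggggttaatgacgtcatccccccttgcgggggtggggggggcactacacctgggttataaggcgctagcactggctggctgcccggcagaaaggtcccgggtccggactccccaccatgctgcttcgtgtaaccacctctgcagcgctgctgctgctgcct
Cib3: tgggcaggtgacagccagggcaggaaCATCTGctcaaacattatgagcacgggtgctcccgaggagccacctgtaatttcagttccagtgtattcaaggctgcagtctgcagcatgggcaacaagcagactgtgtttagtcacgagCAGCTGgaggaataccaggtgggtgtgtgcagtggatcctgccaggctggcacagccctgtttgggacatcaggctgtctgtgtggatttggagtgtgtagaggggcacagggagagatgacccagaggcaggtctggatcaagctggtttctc

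Of 21 transcription and RNA regulators of hair cells measured, 10 were called higher (47.6%) and 5 lower (23.8%). Over all genes 22.4% were called in each direction, so the lower share was near that of all genes. The same 22.4% is the share to set beside each list below. The list's median log2 difference was 0.39, against 0.07 over all genes. The homeobox factors Lhx3 (9.38, 9.30 and 9.11 against 4.53 and 4.06; 4.97 ± 0.20) and Barhl1 (4.69 ± 0.25), needed for hair cell maintenance, and the RNA-binding protein gene Rbm24 (5.00 ± 0.27), which controls splicing in hair cells, rose by over 16-fold. The splicing factor gene Srrm4 read 8.70, 8.73 and 8.46 in iHCs and 4.91 and 4.83 in control EBs (3.76 ± 0.22). Rest, the repressor of neuronal genes whose protein Srrm4 inactivates by splicing in hair cells, read 4.64, 4.86 and 5.32 against 7.23 and 7.23 (-2.29 ± 0.28). Its highest iHC value, in replicate 3, was still well below both control arrays. The zinc finger gene Insm1, which marks young outer hair cells, rose (1.81 ± 0.18), and Rfx3, an RFX factor of hair cells, rose by less (0.76 ± 0.10). Ikzf2, the outer hair cell factor helios, was lower (-0.93 ± 0.26; without control EB replicate 1 it was at -0.76 and not called, adjusted p = 0.0928), as were Nr2f2 (-2.33 ± 0.20), Nr2f1 (-1.04 ± 0.16) and Tbx2, a factor of inner hair cells (-1.53 ± 0.16).

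The tip link and transduction complex rose almost as a whole: 14 of 16 measured members were called higher and 0 lower (median 2.32). Cdh23, the upper part of the tip link, read 9.34, 9.16 and 8.69 in iHCs and 4.24 and 4.06 in control EBs (4.92 ± 0.19; limma adjusted p = 7.8e-11), and Pcdh15, the lower part, differed by 3.51 ± 0.13. The channel subunit genes Tmie (8.94, 8.98 and 8.50 against 4.40 and 4.70; 4.25 ± 0.17), Cib3 (4.76 ± 0.27) and Lhfpl5 (3.95 ± 0.33) lay in the same range. Arrays of the groups stood far apart for all of them. The pore-forming channel genes rose by less. Tmc2, the early channel of developing hair cells, differed by 2.59 ± 0.32, and Tmc1, the channel of mature ones, read 5.44, 5.25 and 4.90 against 4.06 and 4.11 (1.11 ± 0.18). Harmonin (Ush1c, 2.06 ± 0.28), Sans (Ush1g, 1.04 ± 0.16), whirlin (Whrn, 0.89 ± 0.14) and Pdzd7 (1.77 ± 0.21), scaffolds of the bundle's links, and Loxhd1 (3.19 ± 0.42), needed for transduction in mature hair cells, were called as well. Adgrv1, the large ankle-link receptor gene, was not called (-0.17 ± 0.17; adjusted p = 0.45). Within the 11 promoters available for this list, 5 (45.5%) held CAGCTG, against the 15.8% of all promoters. The lists were not alike in this. Among promoters of the hair cell regulators above, CAGCTG stood only in those of Barhl1 and Nhlh2. Among ribbon synapse genes it stood in Bsn, Stx1a, Sv2a, Cplx1, Cplx2, Rab3c, Slc18a2 and Cacnb2. Of these, Cplx1 was not called and Cacnb2 was lower in iHCs.

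Of 28 actin core and taper genes of stereocilia, 15 were called higher (53.6%) and 7 lower (25%; median 0.32). The lower share was near the 22.4% of all genes. Espin (Espn) bundles actin and rose (1.88 ± 0.14), as did taperin (Tprn, 2.30 ± 0.17), the capping-related gene Twf2 (1.97 ± 0.12), plastin 1 (Pls1, 1.66 ± 0.28) and Gpsm2, which sets the height of the tallest row (1.56 ± 0.18). Grxcr2, which shapes the bundle's base, read 8.24, 8.15 and 5.95 in iHCs against 4.07 and 4.11 (3.36 ± 0.77; limma adjusted p = 0.0022). Its value in replicate 3 was over 2 log2 units below the other iHC arrays and still above both controls, and without that array the difference was 4.11 (adjusted p = 0.000295). Plastin 3 (-3.33 ± 0.21), L-plastin (Lcp1, -1.60 ± 0.15), fascin 1 (Fscn1, -1.70 ± 0.27) and Eps8, the tip capping protein gene (-0.74 ± 0.16), were lower in iHCs. The genes of stereocilin (Strc, 0.18 ± 0.16) and of Xirp2 (0.14 ± 0.11), found in mature bundles, were not called, and both read under 5 in every array of either group.

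Of 13 myosins of hair cells, 7 were called higher and 5 lower (median 0.69). Besides Myo7a and Myo15, the risers were Myo3b (3.83 ± 0.32), which works at stereocilia tips, Myo6 (1.51 ± 0.18), found at their base, Myo1h (1.43 ± 0.14), Myo1c (0.98 ± 0.14) and the nonmuscle myosin gene Myh14 (0.69 ± 0.22). Myh14 was not called without control EB replicate 1 (0.66, adjusted p = 0.0901), control EB replicate 2 (0.72, 0.0661) or Dox+RA iHC replicate 2 (0.59, 0.0635). The other nonmuscle myosins of the list, Myh9 (-1.99 ± 0.22) and Myh10 (-1.27 ± 0.10), were lower, with Myo10 (-2.18 ± 0.20), Myo1e (-1.67 ± 0.23) and Myo5a (-1.55 ± 0.25). Myo3a was not called (0.07 ± 0.09).

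Of 29 ribbon synapse and exocytosis genes, 19 were called higher and 2 lower (median 1.61). Otoferlin (Otof), the calcium sensor of hair cell exocytosis, read 8.81, 8.45 and 7.75 in iHCs and 4.84 and 4.68 in control EBs (3.58 ± 0.47), with its lowest iHC value in replicate 3. The vesicle genes Syt7 (4.85 ± 0.21), Syt1 (4.69 ± 0.18), Syp (3.73 ± 0.20), Snap25 (3.61 ± 0.22) and Rab3a (2.80 ± 0.17), the active zone gene Pclo (3.86 ± 0.17) and the calcium-binding modulator Cabp2 (8.31, 8.56 and 8.85 against 4.44 and 4.45; 4.13 ± 0.19) rose strongly. Slc17a8, the glutamate transporter VGLUT3 that fills hair cell vesicles, rose by less (6.22, 6.33 and 6.66 against 5.17 and 5.05; 1.29 ± 0.16). Slc18a2, the vesicular transporter of monoamines, read 8.97, 9.14 and 9.29 against 5.59 and 5.62 (3.52 ± 0.12). Ctbp2, whose gene also encodes the ribbon protein Ribeye from its own start, was lower in iHCs (-1.67 ± 0.18); the entry does not separate the forms. The glutamate and GABA transporters of central neurons, Slc17a6 (0.11 ± 0.12) and Slc32a1 (0.25 ± 0.13), were not called.

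Efferent nerves reach hair cells through the receptor made of Chrna9 and Chrna10. Chrna10 read 9.44, 9.26 and 8.39 in iHCs and 4.01 and 3.96 in control EBs (5.04 ± 0.59; limma adjusted p = 4.23e-06), whereas Chrna9 read 5.70, 5.59 and 5.07 against 4.77 and 4.81. The Chrna9 arrays of the groups did not overlap, but the difference missed the threshold. It was called with the replicate number as a block (0.92, adjusted p = 0.00217) and in a fit on the 5 arrays alone (0.66, adjusted p = 0.0205). Neuronal subunits were called too: Chrnb2 (4.08 ± 0.24), Chrnb4 (3.42 ± 0.27), Chrna3 (2.13 ± 0.32) and Chrna5 (2.04 ± 0.28). In all, 6 of 14 genes of this list were called higher and 0 lower (median 0.42), with 1 lower without control EB replicate 2 or without Dox+RA iHC replicate 3.

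Among 11 calcium pumps and buffers 4 were called higher and 0 lower (1 lower without Dox+RA iHC replicate 3). Atp2b2, the calcium pump of stereocilia, read 8.85, 9.07 and 9.02 against 4.87 and 5.02 (4.04 ± 0.17), and the exchanger gene Slc8a2 rose by 2.58 ± 0.30. The buffer gene calbindin (Calb1, 0.23 ± 0.11) was not called and read under 4 in all arrays. Of 10 potassium channel genes, 6 were higher and 2 lower, with Kcnk9 first, then Hcn2, a cation channel gene counted with them (2.50 ± 0.21), Kcnh7 (1.80 ± 0.42) and the large-conductance channel gene Kcnma1 (1.64 ± 0.22). Outer hair cell genes gave 5 higher and 2 lower of 11 (1 lower without control EB replicate 1). The tight junction gene Cldn9 (3.56 ± 0.25) and the factor gene Bcl11b (2.91 ± 0.18) led them, while prestin (Slc26a5), the motor protein gene of outer hair cells, read 3.64, 3.59 and 3.73 against 3.25 and 3.35. That difference was called but small (0.35 ± 0.09; limma adjusted p = 0.0039).

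Notch ligands and fringes rose and most receptors fell. Of 10 ligands and modifiers, 8 were called higher and 1 lower (median 2.22). Dll3 (9.60, 9.73 and 9.11 against 5.06 and 4.65; 4.62 ± 0.24), Mfng (9.85, 9.84 and 9.78 against 5.20 and 5.26; 4.59 ± 0.10) and Jag2 (4.25 ± 0.17) led, followed by Dner (3.70 ± 0.33), Lfng (2.47 ± 0.23), Dll1 (1.98 ± 0.16) and Dll4 (1.38 ± 0.17). Jag1, the ligand of supporting and prosensory cells, read 4.32, 4.00 and 4.98 against 6.74 and 6.80 (-2.33 ± 0.38). Receptors and effectors gave 6 higher and 7 lower of 15 (median -0.28). Notch2 (-2.92 ± 0.27), Notch3 (-2.01 ± 0.18) and Notch1 (-0.91 ± 0.14) were lower, with the effector genes Hey2 (-1.72 ± 0.21) and Hes1 (-1.37 ± 0.28). Hes6 (1.93 ± 0.17), which opposes Hes1, Hes5 (1.07 ± 0.23) and the Notch target Nrarp (0.94 ± 0.13) were higher.

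Factors of the otic placode and prosensory patch showed no common direction: 4 of 18 were called higher, 4 lower and 10 neither (median -0.05), shares like the 22.4% of all genes in each direction. Eya1 (2.77 ± 0.19), Sox10 (1.18 ± 0.16), Sox2 (0.99 ± 0.16) and Six4 (0.98 ± 0.18) were higher, and Bmp4 (-3.72 ± 0.24), Sox9 (-1.50 ± 0.28) and Fgf10 (-0.90 ± 0.19) were among those lower. Pax2, an early otic factor, read 4.56, 4.56 and 4.69 against 4.27 and 4.15 and was not called (0.40 ± 0.17; adjusted p = 0.066), though it was in a fit on the 5 arrays alone (adjusted p = 0.0154). Supporting cell genes gave 5 higher and 5 lower of 16. Fbxo2 (4.08 ± 0.24) and Prox1 (3.13 ± 0.25) rose, whereas the glutamate transporter gene Slc1a3 (-3.60 ± 0.15) and Fgfr3 (-1.27 ± 0.21) fell. The markers of supporting cells had a mean log2 signal of 5.07 to 5.26 in iHCs and 4.98 to 5.07 in control EBs.

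**Figure D2:**
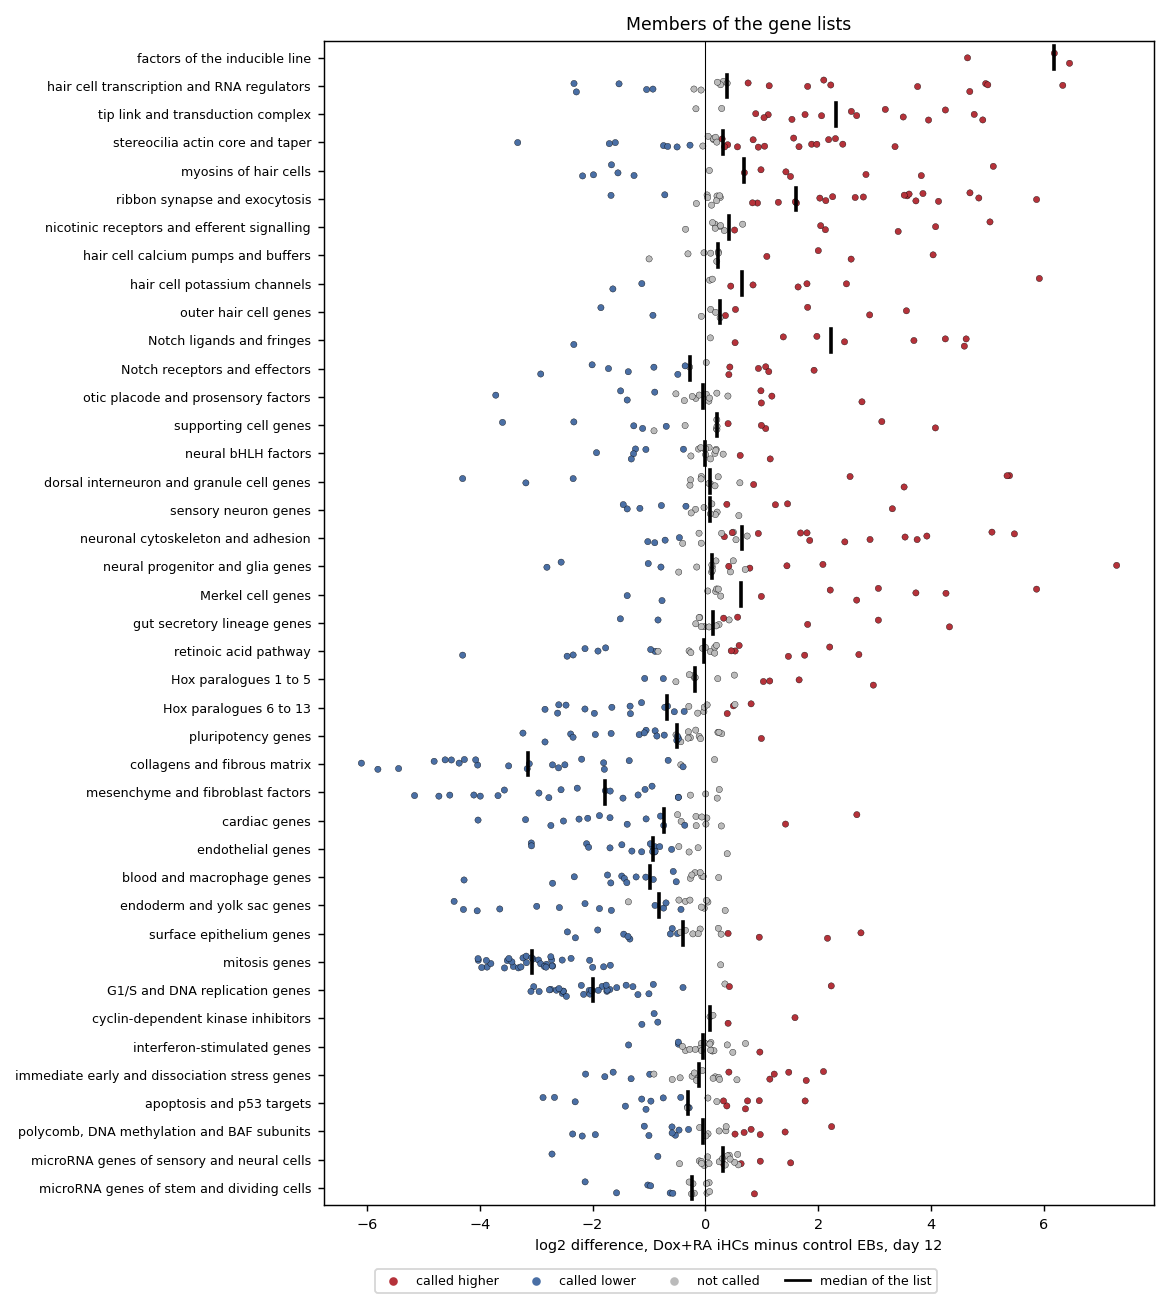
Log2 difference between Dox+RA iHCs and control EBs at day 12 for every measured member of 41 gene lists, each point a gene (red called higher, blue called lower, grey not called by limma) and each bar the list's median. The transduction complex (median 2.32) and the Notch ligands (2.22) lie to the right, and collagens (-3.14) and mitosis genes (-3.07) to the left.

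Genes of the other Atoh1-dependent cells were counted beside the 22.4% of all genes called in each direction. In the list of dorsal interneuron and granule cell genes 5 of 17 were higher (29.4%) and 3 lower (17.6%): Lhx1 and Cntn2, the POU factor gene Pou4f1 (3.52 ± 0.12), the cerebellin genes Cbln1 (2.56 ± 0.26) and Cbln2 (0.85 ± 0.15) on the higher side, and Meis1 (-4.30 ± 0.28), Etv1 (-3.18 ± 0.40) and Meis2 (-2.35 ± 0.15) on the lower. Barhl2, a marker of dorsal interneurons close to Barhl1, was not called (0.17 ± 0.10). Of 14 Merkel cell genes, 7 were higher (50%) and 2 lower (14.3%; median 0.63), among them the keratin gene Krt20 (8.13, 8.59 and 8.65 against 4.16 and 4.22; 4.26 ± 0.25) and the touch channel gene Piezo2 (2.68 ± 0.25). The factor gene Isl1 (-1.39 ± 0.34) and the peptide gene Penk (-0.77 ± 0.19) were the Merkel cell genes called lower. The 5 not called included the keratins Krt8 (0.27 ± 0.20) and Krt18 (0.18 ± 0.21), also of simple epithelia. Sst (0.04 ± 0.64) and Vip (0.20 ± 0.11) were not called either. Of 16 gut secretory genes, 5 were higher (31.2%) and 2 lower (12.5%), close to the share of all genes. The granin genes Chgb (4.33 ± 0.27) and Chga (3.07 ± 0.16), shared by neuroendocrine cells at large, led these. Without control EB replicate 1, 0 Merkel cell genes and 1 gut gene were called lower, and without control EB replicate 2 the gut genes called higher were 3.

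Among neuronal lists, that of cytoskeleton and adhesion genes had the largest share higher, 13 of 24 (54.2%), with 4 lower (median 0.64), and the other lists lay near or below the 22.4% of all genes called higher. Map2, of dendrites, read 9.29, 9.24 and 9.15 against 5.76 and 5.62 (3.54 ± 0.21), and Ina (3.92 ± 0.25), Stmn3 (3.75 ± 0.21) and Rbfox3 (2.92 ± 0.18) rose as well. Tubb3, the neuronal tubulin gene, was lower in iHCs (4.38, 4.28 and 4.87 against 5.37 and 5.45; -0.90 ± 0.17), as was Ncam1 (-1.02 ± 0.18). Of 20 neural bHLH factors and their inhibitors, 2 were higher (10%) and 6 lower (30%), with Neurod1 at 0.62 ± 0.14, and Neurog3 (0.19 ± 0.13) not called. The inhibitors of bHLH factors Id2 (-1.93 ± 0.34), Id3 (-1.31 ± 0.32) and Id1 (-1.28 ± 0.24) were lower, and Id4 higher (1.15 ± 0.26). Among 17 sensory neuron genes 4 were higher (23.5%) and 5 lower (29.4%). Prrxl1, a factor gene of pain-sensing and dorsal horn neurons, rose by 3.31 ± 0.19, and the peripherin gene Prph was not called (0.21 ± 0.19). Neural progenitor and glia genes gave 5 higher (26.3%) and 4 lower of 19, with Sox1 (2.08 ± 0.47) on the higher side beside Ptprz1, and Egfr (-2.81 ± 0.14) and Vim (-2.56 ± 0.20) on the lower. The mean log2 signal of 10 neuron markers ran from 6.07 to 6.51 in iHCs and from 4.81 to 5.08 in control EBs. Without control EB replicate 1, 2 genes of cytoskeleton and adhesion were called lower and 3 of neural progenitors and glia higher. How far neuron-like cells among those sorted add to these values was not tested.

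The largest falls were in matrix and mesenchyme genes. Postn (periostin) read 4.69, 4.25 and 5.00 in iHCs and 10.74 and 10.75 in control EBs (-6.10 ± 0.39), and the proteoglycan genes Lum (2.98, 3.01 and 3.02 against 8.59 and 9.03; -5.81 ± 0.14) and Dcn (-5.44 ± 0.28) followed. Pdgfra, the growth factor receptor that marks mesenchyme, read 4.49, 4.30 and 4.78 against 9.65 and 9.71 (-5.16 ± 0.29). Every iHC array of these genes lay more than 4 log2 units below both control arrays. The other large falls were the protocadherin gene Pcdh18 (-5.15 ± 0.25), the eye and gut regulator Mab21l2 (-5.08 ± 0.40), the matrix genes Frem1 (-5.05 ± 0.22), Col1a2 (-4.81 ± 0.17) and Nid1 (-4.79 ± 0.35), the hyaluronan synthase gene Has2 (-4.73 ± 0.32), the growth regulator Gpc3 (-4.74 ± 0.67), Itm2a (-4.71 ± 0.22) and Capn6 (-4.79 ± 0.42). H1f5, a linker histone gene of dividing cells, fell with them (-4.81 ± 0.17). Mtap, which encodes an enzyme of methionine salvage, read 4.07, 4.19 and 4.34 against 8.89 and 9.09 (-4.79 ± 0.37).

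Of 24 collagen and fibrous matrix genes 22 were called lower and 0 higher (median -3.14). Fibrillar collagens Col1a1 (-4.61 ± 0.22) and Col3a1 (-4.37 ± 0.16), the crosslinking enzyme gene Lox (-4.07 ± 0.26) and fibronectin (Fn1, -4.04 ± 0.32) differed by more than the basement membrane collagens Col4a1 (-2.20 ± 0.18) and Col4a2 (-1.81 ± 0.19). Cartilage collagens Col2a1 (-0.66 ± 0.17) and Col11a1 (0.16 ± 0.13) moved least or were not called. Mesenchyme and fibroblast factors gave 19 lower and 0 higher of 23 (median -1.77), including Snai2 (-4.53 ± 0.33), Foxf1 (-4.11 ± 0.26), Osr1 (-3.99 ± 0.28) and Twist1 (-1.77 ± 0.18). Of 10 fibroblast markers 9 were called lower, and their mean log2 signal was 4.60 to 4.93 in iHCs against 8.87 and 8.88 in control EBs.

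Genes of other EB tissues were lower as well. Cardiac genes gave 13 lower and 2 higher of 23 (median -0.74), with Tbx20 (-4.03 ± 0.25), Hand2 (-3.19 ± 0.13) and Tnnt2 (-2.52 ± 0.27) lower and Myl3 (2.68 ± 0.33) and Nppa (1.42 ± 0.20) higher. Endoderm and yolk sac genes gave 13 lower and 0 higher of 22 (median -0.82), among them the factor gene Gata6 (6.27, 5.60 and 5.44 against 10.23 and 10.22; -4.46 ± 0.39), alpha-fetoprotein (Afp, -4.29 ± 0.51) and albumin (Alb, -4.05 ± 0.16). Blood and macrophage genes gave 13 lower and 0 higher of 20, with the chemokine gene Ccl3 (-4.28 ± 0.27; -5.02 and -3.54 without control EB replicates 1 and 2) and the embryonic globin gene Hbb-bh1 (-2.33 ± 0.18) in the lead. Of 20 surface epithelium genes 9 were lower and 4 higher. The claudin genes Cldn3 (2.76 ± 0.25) and Cldn4 (2.16 ± 0.30) rose while Krt19 (-2.31 ± 0.21) and Dsp, of desmosomes (-2.45 ± 0.39), fell.

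Endothelial genes gave 16 lower and 0 higher of 20 (median -0.93), and here the iHC arrays differed among themselves. Kdr, the VEGF receptor gene, read 5.91, 5.85 and 4.32 in iHCs and 8.41 and 8.48 in control EBs (-3.09 ± 0.42), and Cdh5 read 7.80, 7.52 and 5.22 against 8.61 and 8.47 (-1.69 ± 0.63; limma adjusted p = 0.038). The mean log2 signal of 8 endothelial markers was 5.92, 5.71 and 4.78 in iHC replicates 1, 2 and 3 against 7.17 and 7.14 in control EBs. Replicates 1 and 2 thus had more endothelial signal than replicate 3. Without replicate 3, 13 endothelial genes were called lower and 1 higher, and Cdh5 was at -0.88 and not called (adjusted p = 0.145). Cdh5 was not called without control EB replicate 1 (-1.62, adjusted p = 0.142) or replicate 2 (-1.76, adjusted p = 0.119) either. Whether endothelial cells among those sorted give this signal was not tested.

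Cell cycle genes fell nearly without exception. Of 34 mitosis genes 33 were called lower and 0 higher (median -3.07). Mki67, the marker of cycling cells, read 5.36, 5.34 and 5.52 in iHCs and 9.52 and 9.36 in control EBs (-4.03 ± 0.25; limma adjusted p = 5.48e-09), and Cdk1, the kinase that drives mitosis, read 5.08, 4.94 and 4.73 against 8.96 and 8.93 (-4.03 ± 0.24). Top2a (-3.88 ± 0.20), Ccna2 (-3.87 ± 0.28), Plk1 (-3.56 ± 0.30) and Ccnb2 (-3.41 ± 0.20) lay close to them, and arrays of the groups stood far apart. Bub3, a gene of the spindle checkpoint, was the member not called (0.27 ± 0.19; adjusted p = 0.28); without Dox+RA iHC replicate 3 it was called higher (0.47, adjusted p = 0.0443). Of 33 G1/S and DNA replication genes 30 were lower and 2 higher (median -2.0), with the helicase subunit Mcm6 (-3.09 ± 0.32), the polymerase primase gene Prim1 (-2.77 ± 0.22) and cyclin D2 (Ccnd2, -2.64 ± 0.40) among the falls. Rb1, the retinoblastoma protein gene that keeps hair cells out of the cycle, rose, at 9.21, 9.38 and 9.26 against 6.92 and 7.19 (2.23 ± 0.14), and E2f2 by little (0.42 ± 0.15). Of 7 cyclin-dependent kinase inhibitors, Cdkn2d, which keeps hair cells postmitotic (1.59 ± 0.17), and Cdkn1b, the inhibitor that ends division of their precursors (0.40 ± 0.14), were higher. Cdkn1c (-1.13 ± 0.26) and Cdkn2c (-0.91 ± 0.15) were among those lower. With arrays left out in turn, E2f2 kept its call only without Dox+RA iHC replicate 3 (adjusted p 0.0595 to 0.15 in the others) and Cdkn1b only without Dox+RA iHC replicate 2 (0.0857 to 0.129).

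**Figure D3:**
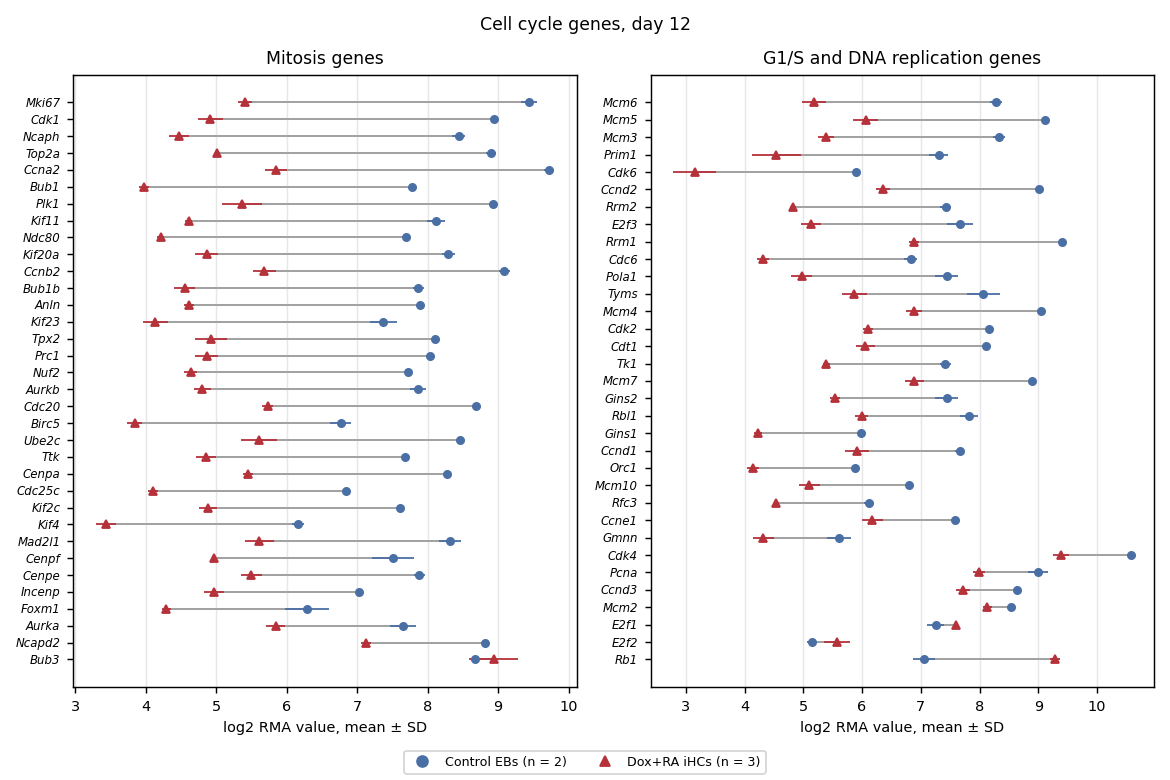
Mean log2 RMA value with SD of 34 mitosis genes (left) and 33 G1/S and DNA replication genes (right) in Dox+RA iHCs (triangles, n = 3) and control EBs (circles, n = 2) at day 12. The groups lie up to 4.03 apart at Mki67 and Cdk1, and Rb1, on the right, lies over 2 log2 units higher in iHCs.

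Mitosis genes share promoter letters known from textbooks. CCAAT boxes bind the factor NF-Y, and the element TTTGAA, called CHR, binds the complexes that repress these genes in resting cells. On both strands, 20 of the 27 mitosis gene promoters available (74.1%) held CCAAT, 21 (77.8%) held TTTGAA and 18 (66.7%) held both, against 38.4%, 15.8% and 6.40% of all 16918 promoters. In 26 promoters of G1/S genes TTTGAA stood in 7.69%, and the E2F letters TTCGCGC or TTGGCGC stood in 11 (42.3%) against 5.07% of all. CCAAT was not particular to mitosis genes. Among the G1/S promoters it also stood in those of Cdk2, E2f2, E2f3, Mcm2, Mcm3, Mcm5, Mcm6, Mcm7, Mcm10, Orc1, Pcna, Pola1, Prim1, Rfc3, Rrm1 and Rrm2. It was absent from those of Ccnd3, Ccne1, Cdc6, Cdk4, Cdk6, Cdt1, E2f1, Rbl1, Tk1 and Tyms. The promoters of Cdk1 and Ccnb2 are shown because both hold several copies, with CCAAT on either strand (ATTGG on the other) and TTTGAA in capitals. They are chr10:69352863-69353162 and chr9:70421505-70421804 (GRCm38.p6, RefSeq), both genes on the minus strand and written 5′ to 3′ along the gene.
Cdk1: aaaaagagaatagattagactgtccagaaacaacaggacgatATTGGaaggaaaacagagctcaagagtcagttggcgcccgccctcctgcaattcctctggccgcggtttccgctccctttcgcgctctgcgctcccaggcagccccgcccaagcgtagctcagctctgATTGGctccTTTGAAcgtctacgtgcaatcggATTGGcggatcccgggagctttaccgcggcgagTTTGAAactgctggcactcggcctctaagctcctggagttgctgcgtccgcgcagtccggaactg
Ccnb2: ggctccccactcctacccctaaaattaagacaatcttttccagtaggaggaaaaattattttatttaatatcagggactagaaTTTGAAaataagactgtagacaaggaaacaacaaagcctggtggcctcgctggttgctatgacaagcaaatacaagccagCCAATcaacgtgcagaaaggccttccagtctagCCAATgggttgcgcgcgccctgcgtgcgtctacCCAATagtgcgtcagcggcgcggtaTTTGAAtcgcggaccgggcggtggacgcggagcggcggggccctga
In Cdk1 the CCAAT letters begin at -208, -80 and -48 relative to the start and TTTGAA at -71 and -15.

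Pluripotency genes gave 15 lower and 1 higher of 27 (median -0.51). Nanog read 4.20, 4.05 and 4.40 against 7.49 and 7.41 (-3.24 ± 0.33), and Utf1 (-2.84 ± 0.27), Tdgf1 (-2.39 ± 0.38) and Dnmt3b (-1.95 ± 0.35) were lower, whereas Pou5f1, the core factor Oct4, was near its control level (5.19, 5.12 and 5.32 against 5.61 and 5.35; -0.27 ± 0.11, adjusted p = 0.051). Pou5f1 was called lower without control EB replicate 2 (-0.39, adjusted p = 0.0254) and without Dox+RA iHC replicate 3 (-0.32, adjusted p = 0.0327). Sox2, shared with neural and sensory cells, was the member that rose. Of 22 polycomb, DNA methylation and BAF genes, 6 were higher and 10 lower. The polycomb gene Ezh2 (-2.18 ± 0.15) and the DNA methylation gene Uhrf1 (-2.35 ± 0.16) fell. The BAF subunit genes used by neurons, Actl6b (6.51, 6.67 and 6.58 against 4.27 and 4.43; 2.24 ± 0.17), Dpf3 (1.41 ± 0.13) and Ss18l1 (0.69 ± 0.14), rose, and the progenitor subunit Ss18 was lower (-0.59 ± 0.11).

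Apoptosis genes and p53 targets gave 6 higher and 11 lower of 20 (median -0.32). The death protease gene Casp8 (4.49, 4.36 and 3.93 against 6.97 and 7.31; -2.88 ± 0.24) and the BH3-only gene Bcl2l11 (-2.68 ± 0.24) fell most, and Sesn1 rose most (1.77 ± 0.21). Immediate early and dissociation stress genes gave 6 higher and 5 lower of 24 (median -0.11), near the 22.4% of all genes in each direction, with Gadd45b (2.09 ± 0.18), Btg2 (1.79 ± 0.17) and Dusp1 (1.48 ± 0.20) higher and Hspb1 lower (-2.13 ± 0.32). Fos read 8.04 and 8.49 in control EBs against 7.46, 7.46 and 9.23 in iHCs and was not called (-0.21 ± 0.48; -0.80 without replicate 3, adjusted p = 0.102). Without replicate 3, 6 of the list were called higher and 6 lower.

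Of 24 retinoic acid pathway genes, 7 were called higher (29.2%) and 8 lower (33.3%), with a median of -0.03, beside 22.4% of all genes in each direction. Cyp26b1, the enzyme that breaks RA down, read 8.32, 9.09 and 8.41 in iHCs and 6.05 and 5.72 in control EBs (2.72 ± 0.24). The retinol importer gene Stra6 (2.20 ± 0.23) and the retinol dehydrogenase gene Rdh10 (1.76 ± 0.15) rose. The receptor gene Rarb (-1.77 ± 0.30), the binding protein gene Crabp1 (-2.45 ± 0.43) and Meis1 fell. Hox genes were counted by paralogue group. Of 13 genes of groups 1 to 5, 4 were higher and 2 lower (median -0.18), and all of those higher were in the Hoxb cluster, with Hoxb5 at 2.98 ± 0.21 and Hoxb4 at 1.66 ± 0.23. Without Dox+RA iHC replicate 3, 4 of these anterior genes were called lower. Among 23 genes of groups 6 to 13, 14 were lower and 3 higher (median -0.67). Hoxa10 (-2.84 ± 0.21), Hoxc6 (-2.62 ± 0.15) and Hoxa13 (-2.60 ± 0.14) fell most, and the genes called higher were again of the Hoxb cluster: Hoxb8 (0.81 ± 0.18), Hoxb6 (0.50 ± 0.16) and Hoxb7 (0.39 ± 0.12). Hoxb6 and Hoxb7 were not called without Dox+RA iHC replicate 3 (0.31 and 0.29, adjusted p = 0.0887 and 0.0751) or control EB replicate 2 (0.49 and 0.34, adjusted p = 0.1 and 0.119), nor Hoxb6 without control EB replicate 1 (0.51, adjusted p = 0.0814).

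To see where RA sets this comparison apart from that of Dox alone, Dox+RA and Dox iHCs of day 12 were tested directly, since both comparisons with EBs share the same control arrays. Here 205 genes (0.924%) were called, 85 higher with RA (0.383%) and 120 lower (0.541%). With the replicate number as a block (same-numbered iHC arrays deviated together), 722 were called, 317 higher and 405 lower. Leaving out a library moved the count to 393 without Dox iHC replicate 1 and 360 without Dox+RA iHC replicate 3, and to 80 without Dox+RA replicate 1, 55 without Dox+RA replicate 2 and 55 without Dox replicate 2. Cib3 rose most. It read 8.65, 9.37 and 8.26 with Dox and RA, 6.13, 6.22 and 5.93 with Dox alone and 4.13 and 3.86 in control EBs, a difference between the iHCs of 2.67 ± 0.24 (limma adjusted p = 5.28e-05). The groups form 3 separate steps in this gene. Among the other 15 members of the transduction list 0 were called between the iHCs, near the 0.924% of all genes. The median difference of the whole list between the iHCs was 0.25, against 0.03 over all genes. The RA target genes Cyp26b1 (2.47 ± 0.21) and Dhrs3, which lowers RA supply (2.17 ± 0.24), rose with RA, as did the Wnt antagonist gene Frzb (2.26 ± 0.30). Dhrs3 read 6.98, 6.97 and 6.46 with RA, 4.68, 4.59 and 4.63 without and 8.10 and 7.45 in control EBs, so both iHC groups stayed below the controls.

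Of the 13 anterior Hox genes 5 rose with RA: Hoxb5 (8.75, 8.40 and 8.05 against 6.31, 6.08 and 5.88; 2.31 ± 0.18), Hoxb4 (1.76 ± 0.21), Hoxb3 (1.56 ± 0.14), Hoxb2 (1.29 ± 0.17) and Hoxa5 (1.01 ± 0.20). Of the 23 posterior ones Hoxb8 rose (0.75 ± 0.16). Genes lower with RA were led by the cadherin genes Cdh10 (-2.08 ± 0.42) and Pcdh10 (-1.88 ± 0.16), the cerebellin gene Cbln2 (6.18, 6.33 and 6.32 against 8.27, 8.61 and 8.12 and 5.38 and 5.47; -2.06 ± 0.13, limma adjusted p = 3.93e-06) and the matrix gene Spock3 (-2.04 ± 0.25). The LIM factor gene Isl1 read 5.61, 6.37 and 6.95 with RA, 7.55, 8.24 and 8.47 with Dox alone and 7.93 and 7.47 in control EBs (-1.77 ± 0.31). Dox iHCs thus overlapped the control EBs in Isl1, and the Dox+RA iHCs lay below both. The calls of Hoxa5, Hoxb8, Cdh10 and Isl1 were lost without Dox replicate 2 (adjusted p = 0.0895, 0.123, 0.17 and 0.0728) and without Dox+RA replicate 2 (0.0515, 0.0935, 0.0927 and 0.056). Without Dox+RA replicate 1, Cdh10, Isl1 and Hoxb8 were not called (0.129, 0.0501 and 0.195), nor were Cdh10 and Hoxb8 without Dox replicate 1 (0.0564 and 0.0681) and Hoxa5 and Hoxb8 without Dox replicate 3 (0.094 and 0.133). Atoh1, Pou4f3, Gfi1 and Myo7a were not called between the iHCs, with differences of -0.02 ± 0.13, 0.05 ± 0.17, 0.15 ± 0.10 and 0.00 ± 0.25. Other hair cell list members did differ. The vesicular transporter genes Slc17a8 (-0.67 ± 0.14, limma adjusted p = 0.0375) and Slc18a2 (-0.57 ± 0.10, 0.0148) were called lower with RA. The myosin gene Myo1h was called higher (0.588 ± 0.125, limma adjusted p = 0.0376).

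**Figure D4:**
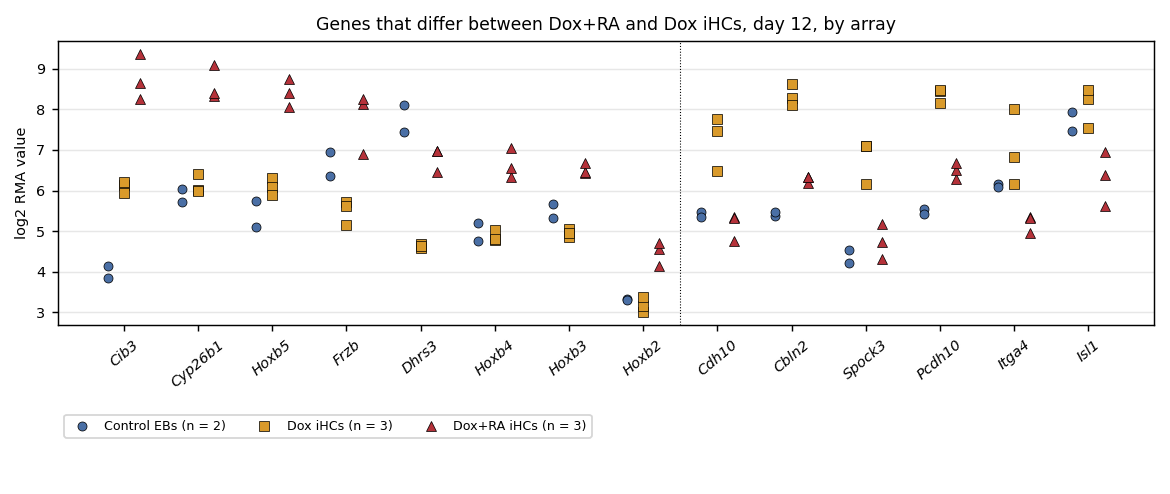
Log2 RMA values of 14 genes that differ between Dox+RA and Dox iHCs at day 12, each point an array of control EBs (circles, n = 2), Dox iHCs (squares, n = 3) or Dox+RA iHCs (triangles, n = 3). Genes left of the dotted line are higher with RA, as Cib3 at 8.26 to 9.37 against 5.93 to 6.22, and those to the right are lower.

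The difference from control EBs was then tested for a change between day 8 and day 12 of culture. The change was called in 582 genes (2.62%), 212 higher at day 12 (0.956%) and 370 lower (1.67%). With the replicate number as a block it was called in 1150, and the count fell to 268 without control EB replicate 2 of day 8, to 272 without control EB replicate 1 of day 12 and to 378 without Dox+RA iHC replicate 2 of day 12. None of the factors of the line, transduction complex, hair cell myosin, Notch ligand, mitosis or G1/S genes in the lists was called, with medians of the transduction list of 2.33 at day 8 and 2.32 at day 12. As 2.62% of all genes were called, 0 calls in lists this short do not set them apart. In other hair cell lists, 3 of 29 ribbon synapse genes were higher, and 1 of 21 hair cell regulators was higher and 2 lower. Of 28 stereocilia genes 1 was lower, as was 1 of 11 outer hair cell genes. These list counts were not compared under alternative fits. Interferon-stimulated genes had the most calls of any list, 10 of 20 lower and 0 higher. Their median difference was 0.72 at day 8 and -0.04 at day 12. Mx2, an antiviral GTPase gene, differed from control EBs by 2.21 at day 8 and by 0.09 at day 12 (change -2.12 ± 0.20), and Ddx58, the viral RNA sensor RIG-I, by 0.93 and -1.36 (change -2.29 ± 0.34). Mx2 read 5.88, 5.92 and 6.15 and then 4.08, 4.15 and 4.32 in iHCs, and 3.68 and 3.87 and then 4.15 and 4.03 in control EBs. The difference of 7 of 24 collagen and matrix genes lay further below 0 at day 12, among them Lox (from -0.94 to -4.07), Col6a1 (from -1.12 to -3.49) and Col6a3 (from -1.19 to -3.16), and the list's median went from -1.38 to -3.14. In these 3 genes the control EBs were higher at day 12 and the iHCs near their level of day 8: Col6a1 read 7.25 and 6.92 and then 9.56 and 9.64 in control EBs, and 5.97, 5.83 and 6.09 and then 6.24, 5.94 and 6.16 in iHCs. The change of Lox was -3.13 ± 0.36, and -3.76 or -2.50 without control EB replicate 1 or 2 of day 8.

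**Figure D5:**
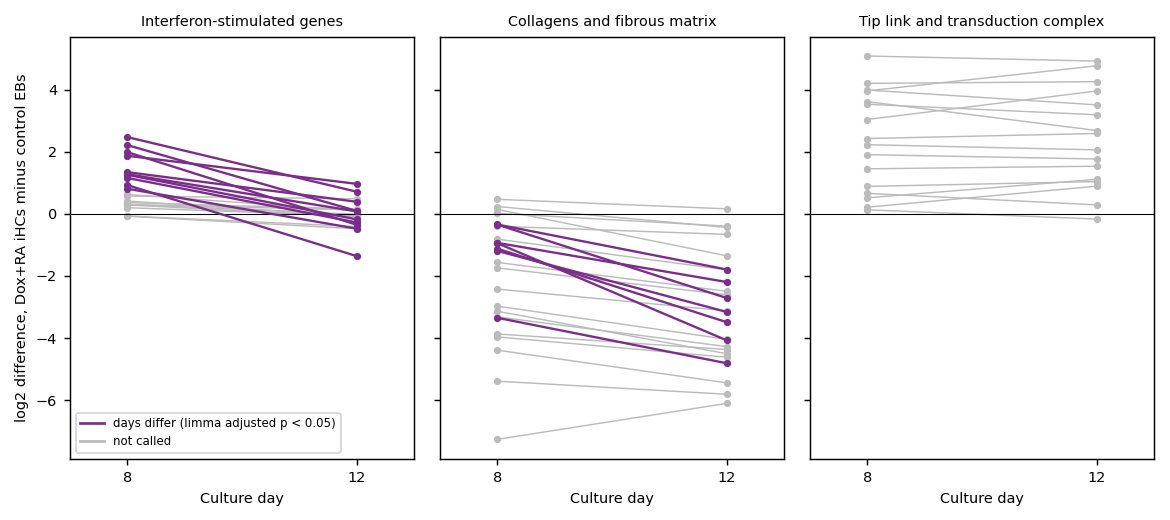
Log2 difference between Dox+RA iHCs and control EBs at culture days 8 and 12 for the members of 3 lists, each line a gene, purple where limma calls the days different. Interferon-stimulated genes (10 purple of 20) and collagens (7 of 24) decline, and 0 of 16 transduction genes are purple.

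Several of the largest changes between the days lay in iHCs and others in control EBs. Somatostatin (Sst) read 8.82, 10.10 and 10.78 in Dox+RA iHCs at day 8 and 5.67, 5.70 and 6.65 at day 12, while control EBs read 5.47 and 5.03 and then 6.20 and 5.73 (change -4.61 ± 0.91). Without control EB replicate 1 of day 12 or replicate 2 of day 8 that change was -4.37 or -4.38 and not called (adjusted p = 0.0721 and 0.072). The neurofilament gene Nefl differed from control EBs by 4.92 at day 8 and 0.74 at day 12 (change -4.18 ± 0.48). In Nefl the iHC arrays lay between 9.24 and 9.82 at day 8 and between 6.36 and 7.15 at day 12, and control EBs read 4.28 and 4.78 and then 6.15 and 6.04, so both groups moved. The difference of Slc18a2 went the other way, from 1.50 to 3.52 (change 2.02 ± 0.16). Its control EBs read 8.10 and 8.02 and then 5.59 and 5.62, while its iHCs were slightly lower at day 12 (9.68, 9.39 and 9.59, then 8.97, 9.14 and 9.29). The relaxin family receptor gene Rxfp2 was slightly lower in iHCs at day 12 (3.46, 3.98 and 4.42 at day 8, 3.29, 3.37 and 3.51 at day 12). In control EBs it was far higher at day 12 (3.35 and 2.99, then 7.86 and 7.24). Albumin was between 4.05 and 4.14 in every iHC array of either day, against 4.09 and 3.85 and then 8.52 and 7.81 in control EBs.

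MicroRNA genes, of which the array reads the precursor transcripts, gave low signals. The cluster of Mir183, Mir96 and Mir182 on chromosome 6 is a hallmark of sensory hair cells and photoreceptors, and Mir17 to Mir20a on chromosome 14 form a cluster known from dividing cells. Of the 37 microRNA genes measured in the lists, 32 had a mature sequence in RefSeq (GRCm38.p6). Mature sequences of both clusters are given for the genes whose values follow, with the seed (bases 2 to 8) in capitals.
miR-182-5p: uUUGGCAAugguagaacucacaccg
miR-96-5p: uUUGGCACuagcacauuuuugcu
miR-183-5p: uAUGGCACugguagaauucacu
miR-17-5p: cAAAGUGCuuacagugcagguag
miR-20a-5p: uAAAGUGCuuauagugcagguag
miR-18a-5p: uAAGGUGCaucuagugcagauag
miR-19a-3p: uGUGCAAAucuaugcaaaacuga
Of these, miR-17-5p and miR-20a-5p share the seed AAAGUGC, and the others each have their own. Mir182 read 4.69, 4.58 and 3.71 in iHCs and 2.72 and 2.91 in control EBs (1.51 ± 0.41; limma adjusted p = 0.0065; 1.41 and not called, adjusted p = 0.0511, without control EB replicate 1), and Mir96 read 4.99, 5.00 and 4.87 against 3.78 and 4.19 (0.97 ± 0.23; limma adjusted p = 0.0024). Mir183 read 3.23, 3.09 and 2.88 against 2.40 and 2.59 and was not called (0.57 ± 0.33; adjusted p = 0.18), though its arrays did not overlap and it was called with the replicate block (0.74, adjusted p = 0.0264) and on the 5 arrays alone (adjusted p = 0.0089). In the other cluster Mir19a (2.71, 2.59 and 2.74 against 3.89 and 4.62; -1.58 ± 0.28), Mir18 (-1.02 ± 0.19) and Mir20a (-0.63 ± 0.17; -0.47 and not called, adjusted p = 0.114, without control EB replicate 2) were called lower, and Mir17 was not (-0.25 ± 0.14). Of 22 microRNA genes of sensory and neural cells 4 were higher and 2 lower, beside 22.4% of all genes called in each direction (2 higher without either control EB replicate, 1 lower without replicate 1), and of 15 genes of stem and dividing cells 1 was higher and 6 lower.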

How the data were processed

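RNA was read on 16 Affymetrix Mouse Gene 2.1 ST arrays. The authors deposited log2 values from RMA. Per the submitters' processing notes the software was Affymetrix Expression Console, version not given. Small signals are compressed by RMA and come without detection calls, and the number of arrays limits the precision. Replicates are biological per the labels. Array strip, scan date and batch were not known here.

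Of 33708 entries, 23521 carry 1 gene symbol, 1814 several and 8373 none. For 1082 genes with several entries the brightest on average was used, which left 22180 genes. A limma fit (version 3.58.1, R 4.3.3) took in all 16 arrays and gave each of the 6 groups its mean, followed by contrasts.fit and eBayes at defaults. Genes were called where the p adjusted over all genes by Benjamini-Hochberg was under 0.05. Adjusted p-values are all of this kind, and ± is limma's standard error. The fit was tested on simulated data. Members and lists were chosen with earlier results of these data known. Named genes were the factors and Myo7a, the 15 largest rises and falls whose arrays do not overlap, list members with the largest differences first, called or not, and the 5 largest rises and falls of the other contrasts, passing over predicted genes and small RNAs.

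Replicate numbers were checked for pairing by correlating arrays after removal of group means. Same-numbered Dox+RA and Dox iHCs of day 12 had r of 0.330, 0.280 and 0.453, all above 0.1, so their numbers were taken to pair them. Same-numbered Dox+RA iHCs of days 12 and 8 also lay above 0.1, at 0.302, 0.147 and 0.347. The main fit holds groups only, so its values between the iHCs and between the days leave this pairing out. Counts with the replicate block are given beside them. With control EBs there are only 2 pairs (0.0595 and 0.0404), too few to say. Alternatives were a fit on the groups compared, the replicate block, a trended and robust prior, array weights, median centring, leaving out dim genes, the mean of entries, and leaving out each array.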

Additional observations from a re-analysis of the deposited data

Results flagged for a closer look

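The genes below are those with the 5 largest called rises and the 5 largest called falls, between day 8 and day 12, in the difference between Dox+RA iHCs and control EBs (limma interaction contrast). They drew attention because the same contrast differed between the days by that test. The difference rose by day 12 for Cited4 (from -2.07 to 1.31, a change of 3.38 ± 0.37, adjusted p = 0.0002), which encodes a transcriptional coactivator. It rose for the atrial myosin gene Myl7 by 3.01 ± 0.60, for the T cell adaptor gene Grap2 by 2.59 ± 0.29, for the red cell membrane gene Rhag by 2.35 ± 0.35 and for the embryonic globin gene Hbb-y by 2.21 ± 0.28. In Myl7, Grap2 and Rhag the control EB means fell from 9.233 to 6.628, from 7.765 to 5.053 and from 6.192 to 3.690. Their iHC means stayed near level, at 4.140 then 4.542, 6.912 then 6.788 and 3.727 then 3.575. In Cited4 both groups moved, control EBs from 8.047 to 5.855 and iHCs from 5.980 to 7.165. The control EB arrays of Hbb-y read 7.67 and 8.14 at day 8 and 5.34 and 5.22 at day 12, and its iHC arrays 5.18, 5.32 and 5.03 and then 4.64, 4.93 and 4.72. Without control EB replicate 1 of day 12 or replicate 2 of day 8 the change of Myl7 was 2.97 or 2.37 and not called (adjusted p = 0.0678 and 0.0972). Without control EB replicate 1 or 2 of day 8 the change of Rhag was 2.96 or 1.74, and that of Myl7 without that replicate 1 was 3.64.

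The difference fell for Rxfp2 (change -4.95 ± 0.34, adjusted p = 3.07e-06), Sst (change -4.61 ± 0.91, adjusted p = 0.013), Nefl (change -4.18 ± 0.48), Alb (change -4.14 ± 0.23) and Slitrk6 (change -3.59 ± 0.27), an adhesion gene of inner ear and neurons. Slitrk6 stayed above control EBs at both days, at 5.06 and then 1.47, and its control arrays read 5.29 and 4.72 at day 8 and 7.69 and 7.49 at day 12.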

How the results depend on the processing

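Between Dox+RA iHCs and control EBs of day 12 the count of called genes, 9927, ranged from 8709 with dim genes left out to 10849 with array weights over the 7 other settings of the fit, and from 7761 to 9282 with single arrays left out, all within 1.5 times. Median centring of the arrays took the share higher from 50% to 56.4% of calls. With the replicate block it was 10509. Between Dox+RA and Dox iHCs the 205 became 29 in a fit on those arrays alone, 722 with the block and 635 with array weights, and ran from 55 to 393 with single arrays left out. The change between days, 582, became 1150 with the block and 942 with array weights and ran from 268 to 686 with single arrays left out. The cause was not tested, beyond the fewer arrays in the fit for the 29.

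Among genes of this comparison whose fits were compared, the replicate block called Bub3 (0.39, adjusted p = 0.0305), Chrna9 (0.92, 0.00217), Mir183 (0.74, 0.0264) and Pou5f1 (-0.31, 0.00817) and ended no call. It changed no call of the genes whose fits were compared in the other contrasts. Slc17a8, Slc18a2 and Myo1h were not compared between the iHCs. A fit on the groups compared alone called Chrna9, Mir183, Nefl and Pax2 (adjusted p 0.0089 to 0.0267), ended the calls of Cdh5, Hoxb6 and Hoxb7 (0.0537 to 0.0764) and, between the iHCs, those of Cdh10, Frzb, Hoxa5, Hoxb8, Isl1 and Spock3 (0.0687 to 0.169). Cdh5 was not called with the trended, robust prior (0.0507), nor Hoxb8 between the iHCs with median centring (0.0614). Nefl was also called without Dox+RA iHC replicate 2 (0.98, 0.0406).

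Taking the mean of a gene's entries brought Rab3c to 3.08, Pcdh15 to 1.76, Syp to 1.98, Kcnma1 to 0.95, Hoxb5 to 1.87 (1.46 between the iHCs), Etv1 to -1.76, Hspb1 to -0.93, Col1a2 to -3.91 and Col6a1 to -2.58, all still called, and the replicate block brought Grxcr2 to 3.97.

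Signs that changed all belong to uncalled differences. Between the iHCs, Atoh1 ran from -0.14 to 0.05 with single arrays left out, Pou4f3 from -0.05 to 0.10 and Myo7a from -0.12 to 0.13, with Myo7a at -0.01 under median centring. Against control EBs, Fos ran from -0.80 to 0.08. Control EBs have 2 arrays, so leaving out either leaves a lone array that is assumed to vary like the other groups. Low signals are compressed by RMA and have no detection calls, so small differences at values under about 5 are the least certain.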
